A study of Rattus norvegicus with 48 samples.

Results

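The 7 subunit genes of respiratory complex I that lie in the mitochondrial genome were followed in rat motor cortex around implanted silicon electrodes. They are Mt-nd1 (ENSRNOG00000030644), Mt-nd2 (ENSRNOG00000031033), Mt-nd3 (ENSRNOG00000033615), Mt-nd4l (ENSRNOG00000031053), Mt-nd4 (ENSRNOG00000029707), Mt-nd5 (ENSRNOG00000029971) and Mt-nd6 (ENSRNOG00000029042). The genes were taken by these IDs, and the symbols come with that list rather than with the count tables. They are 7 of 18997 distinct genes, of which 17317 are in the table of implanted rats and 17616 in the table of naive rats. All 7 had counts in each of the 48 libraries and all 7 passed the low-count filter of every comparison. The lowest count of any of them in a library was 139, for Mt-nd3.

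Complex I, NADH:ubiquinone oxidoreductase, passes electrons from NADH to ubiquinone and pumps protons across the inner mitochondrial membrane, and cortex relies heavily on the ATP that this gradient drives. Most complex I subunits are encoded in the nucleus, whereas these 7 form the hydrophobic core of its membrane arm and are made on mitochondrial ribosomes. Mitochondrial DNA is transcribed from both strands into long precursors that are cut into separate RNAs, so the levels of genes on a strand are not independent of each other. Mt-nd6 is the one member transcribed from the light strand, and the other 6 are transcribed from the heavy strand. Mt-nd4l and Mt-nd4 share an mRNA with overlapping reading frames. The nuclear genome also carries copies of mitochondrial sequence. The sources used here do not say how reads were divided between such copies, or between Mt-nd4l and Mt-nd4, so these counts are uncertain to that extent.

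The implanted rats were male wild-type Sprague-Dawley, aged 12 to 14 weeks per the labels' protocols. A single-shank silicon probe was placed in the motor cortex and left for 24 h (3 rats), 1 week (5 rats) or 6 weeks (4 rats). Near tissue was taken up to 100 µm from the implant, and far tissue, pooled from smaller pieces around the site, at a distance of about 500 µm. Perfusion-fixed sections were microdissected with a laser, which gives bulk RNA of mixed cells. The 3 naive rats, of the same labelled strain and genotype, had no implant and were sampled at positions labelled 100 µm and 500 µm. Each of the 8 groups held 6 libraries, because some rats gave a library from each hemisphere. Those libraries were summed, so that the rat is the replicate. Marker genes of cell types could not be matched to the IDs of the tables and were not analysed here, so the labelled tissue was not checked.

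The 48 libraries held 3363892 to 12844185 counts and 3062 to 16023 detected genes. Fewer than 6000 genes were detected in 4 libraries. One came from rat 29 (near, 24 h), one from rat 20 (near, 1 week) and the other two from rat 23 (near and far, 1 week). A further library stood apart in the members themselves. In near tissue of rat 25 at 24 h, the 7 genes took 0.892% of counts in the library numbered 1 and 3.81% in the library of its other hemisphere, a 4.28-fold gap. In the other 17 pairs of hemispheres of a rat and distance, the gap was 1.02-fold to 1.31-fold, with a median of 1.12-fold. The main 24 h results are therefore given with and without that library.

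The 7 genes together took several percent of all counts in every group, with a higher share beside the shank than away from it at 1 week and 6 weeks. At 24 h they took 2.69%, 6.86% and 4.85% of counts in near tissue of rats 25, 29 and 30, and 3.33%, 6.05% and 5.03% in far tissue of the same rats. Near tissue was higher in rat 29 and lower in rats 25 and 30, and the near and far ranges overlapped. The near minus far difference was -0.0029 percentage points with an SD of 0.743 (n = 3 rats). Without the first near library of rat 25 it was 0.371 ± 0.506 points (SD, n = 3), and rat 25 was then higher near, at 3.81% beside 3.33%. With libraries of few genes left out instead, the difference was -0.193 ± 0.442 points (SD, n = 3), from -0.641 to 0.244. The direction of the mean thus depended on which library was left out.

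At 1 week, near tissue held 3.43% (rat 9), 5.69% (rat 10), 5.21% (rat 20), 5.60% (rat 22) and 4.59% (rat 23). Far tissue of these rats held 3.39%, 3.47%, 3.52%, 4.88% and 4.29%. Near tissue was higher in 5 of 5 rats, by 0.0446 to 2.22 points, but the ranges of near and far overlapped. The mean difference was 0.995 ± 0.929 points (SD, n = 5). With the 4 libraries of few genes left out, 4 rats remained with both distances and the difference was 0.661 ± 1.13 points, from -0.345 to 2.22.

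At 6 weeks, near tissue held 5.20% (rat 2), 4.86% (rat 11), 4.94% (rat 17) and 4.96% (rat 19). In far tissue the same rats held 2.86%, 3.32%, 4.32% and 3.27%. Every near value lay above every far value, and the difference was 1.55 ± 0.707 points (SD, n = 4). Near tissue at 6 weeks was also the group with the least spread, at 4.99 ± 0.146% (SD, n = 4) beside 4.80 ± 2.09% at 24 h and 4.91 ± 0.932% at 1 week. In bulk tissue a change in the mix of cells and a change in the mitochondrial RNA of each cell cannot be told apart, nor can fewer cells of a type and less RNA per cell.

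**Figure D1:**
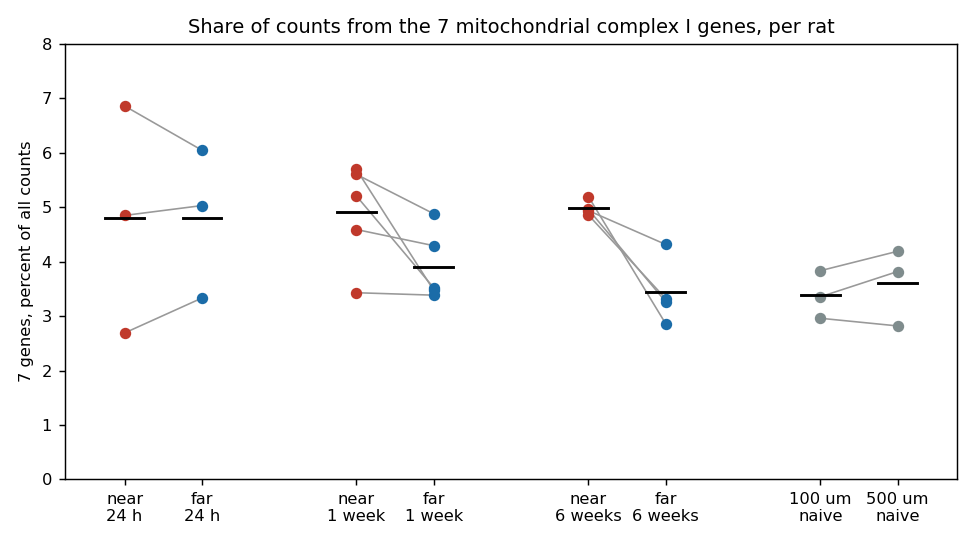
Share of all counts from the 7 mitochondrial complex I genes (y axis, percent) in each group (x axis); points are rats, grey lines join tissue of the same rat, and black bars are group means. At 6 weeks the 4 near points (4.86% to 5.20%) lie above the 4 far points (2.86% to 4.32%), while at 24 h and in naive rats some lines slope up and others down.

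Naive cortex gave the reference for position. The share there was 3.83%, 2.96% and 3.36% at 100 µm in rats n2, n3 and n5, and 4.19%, 2.82% and 3.82% at 500 µm. The 100 µm position was higher in rat n3 and lower in the other two rats, with a mean difference of -0.227 ± 0.323 points (SD, n = 3). Ordered by mean share, the groups ran from near tissue at 6 weeks (4.99%) through near at 1 week (4.91%), far at 24 h (4.80%), near at 24 h (4.80%), far at 1 week (3.91%), naive 500 µm (3.61%) and far at 6 weeks (3.44%) to naive 100 µm (3.38%). Each of the 7 steps between neighbours in that order was smaller than the larger SD of the pair. Sorted means tend to lie close, so this does not show that groups further apart were alike.

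The share of counts from the 2 most abundant genes of the implanted libraries was also higher in near than in far tissue, in 12 of 12 implanted rats beside 10 of 12 for the members. In rats 25 and 30 at 24 h the top 2 genes were higher near and the members lower. For rat 25 this rested on its first near library. Without it, the members of that rat were also higher near, at 3.81% beside 3.33% of counts. Per count of those 2 genes, the members' near-over-far log2 ratio was -0.29 ± 0.17 at 24 h (SD, n = 3, lower in 3 of 3 rats), 0.01 ± 0.25 at 1 week (n = 5, higher in 2 of 5) and 0.08 ± 0.08 at 6 weeks (n = 4, higher in 4 of 4). Without those genes in the denominator, the members' near minus far difference was 0.771 ± 1.97 points at 24 h (SD, n = 3), higher near in 1 rat and lower in 2. Without the first near library of rat 25 it was 1.2998 ± 1.5506, higher in 2 of 3. The difference was 2.00 ± 1.73 at 1 week (n = 5) and 2.88 ± 1.61 at 6 weeks (n = 4), higher near in every rat of these times. The part of these 2 genes in the result was not tested, and the tables do not name them.

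The near and far levels of each gene were then tested with edgeR's quasi-likelihood test. The rat was a block, the 3 times shared a fit, and p-values were adjusted by Benjamini-Hochberg over 14399 genes. The threshold for a call was an adjusted p of 0.05. Fold changes from the fit are log2 ratios after TMM scaling, which sets libraries against each other by the bulk of genes, and are given with an approximate standard error (SE). Levels are CPM (a rat's summed count of the gene per 1000000 of its summed counts) with no such factor, so the fitted ratios can differ from ratios of CPM. With library totals alone as the scale, the median log2 fold change of all genes was -0.20 at 24 h, -0.73 at 1 week and -0.25 at 6 weeks, compared with -0.08, -0.66 and -0.05 after TMM. The members' fitted ratios at 6 weeks were then 0.52 to 0.73.

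At 6 weeks, 2 of the 7 genes were called, both higher in near tissue, where 0.0764% of the genes tested were called in either direction. The 7 fitted log2 fold changes ran from 0.77 to 0.98 with a median of 0.81, beside a median of -0.05 over all genes tested. The first was Mt-nd6, which encodes a small membrane-arm subunit next to the junction with the peripheral arm. Its near levels were 2221 (rat 2), 2296 (rat 11), 2593 (rat 17) and 2166 CPM (rat 19), and its far levels were 1449.5, 1493, 1995 and 1256 CPM. Every near value was above every far value. The log2 fold change was 0.86 ± 0.15 (SE, adjusted p = 4.9e-05, edgeR), higher near in 4 of 4 rats. It was called under 11 of 14 alternatives, with log2 fold changes from 0.60 to 1.03 over all 14. The call was lost without the rat block (adjusted p = 0.817, edgeR), with the 6-week rats alone (0.186) and without rat 2 (0.121).

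The other call was Mt-nd4l, a small subunit whose reading frame overlaps that of Mt-nd4. Near tissue held 1144 (rat 2), 1002 (rat 11), 903 (rat 17) and 931 CPM (rat 19), and far tissue 460.1, 577, 915 and 535 CPM. Rats 2, 11 and 19 had clearly higher near levels, whereas in rat 17 the near level was slightly below the far level, so the ranges overlapped. The log2 fold change was 0.98 ± 0.21 (SE, adjusted p = 0.00372, edgeR), with a higher near level in 3 of 4 rats. This call held under 6 of 14 alternatives, over which the log2 fold change ran from 0.66 to 1.32. It was lost among others with total-count scaling (adjusted p = 0.182, edgeR), without the low-count filter (0.0794), without the block (0.822) and without rat 2 (adjusted p = 1), rat 11 (0.629) or rat 19 (0.189). The gene on the same mRNA, Mt-nd4, was not called.

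**Figure D2:**
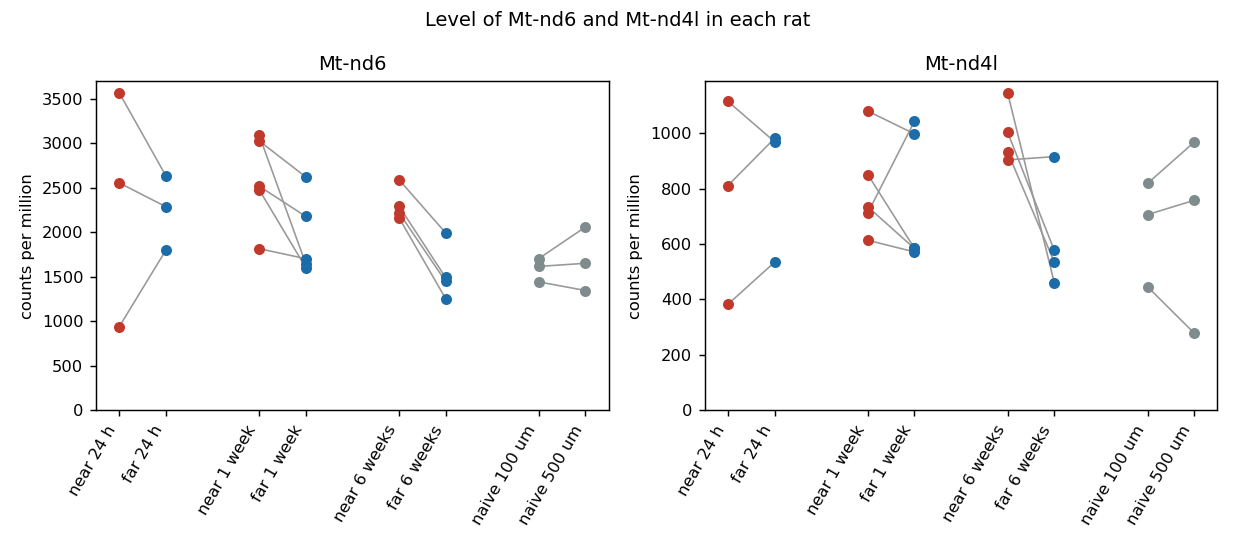
Levels of Mt-nd6 (left) and Mt-nd4l (right) in CPM (y axis, from 0) in each group (x axis); points are rats and grey lines join tissue of the same rat. At 6 weeks Mt-nd6 rises from far to near tissue in 4 of 4 rats, while for Mt-nd4l the line of rat 17 is nearly flat (903 near, 915 CPM far).

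The other 5 genes were not called at 6 weeks, although their fitted ratios were of like size and several had non-overlapping levels. Mt-nd4 encodes one of the antiporter-like, proton-pumping subunits. Its near levels were 15508 (rat 2), 13735 (rat 11), 14579.9 (rat 17) and 14398 CPM (rat 19), and its far levels 9015, 9372, 12404 and 9709.8 CPM. The near and far values did not overlap. The log2 fold change was 0.79 ± 0.23 (SE, adjusted p = 1, edgeR), with a higher near level in 4 of 4 rats.

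Mt-nd5, another antiporter-like subunit at the far end of the membrane arm, had near levels of 13361, 12166, 11962 and 11914 CPM in rats 2, 11, 17 and 19. Its far levels were 6269, 8821, 10635 and 7642 CPM, all below the near levels. The fitted log2 fold change was 0.85 ± 0.26 (SE, adjusted p = 1, edgeR). Mt-nd2, the remaining antiporter-like subunit, ran from 7192 to 7767 CPM in near tissue and from 3897 to 6514 CPM in far tissue, again without overlap. It had a log2 fold change of 0.81 ± 0.21 (SE, adjusted p = 0.573, edgeR).

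Mt-nd1, which helps to form the ubiquinone-binding site where the arms meet, was at 12360, 11665, 11972 and 12258 CPM in near tissue of rats 2, 11, 17 and 19. In far tissue it was at 7425, 7941, 10532 and 8161 CPM, and the ranges did not overlap. Its log2 fold change was 0.77 ± 0.28 (SE, adjusted p = 1, edgeR). Mt-nd3, a small subunit beside the junction of the arms, was the least abundant in counts, at 153 to 187 CPM in near tissue and 89.4 to 172 CPM in far tissue. Its ranges overlapped, and the log2 fold change was 0.79 ± 0.41 (SE, adjusted p = 1, edgeR).

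In CPM, 6 of 7 genes were higher in near tissue of all 4 rats at 6 weeks, the exception being Mt-nd4l, and the same rule held for 3.46% of the genes tested. Near levels lay above far levels without overlap for 5 of 7, all but Mt-nd3 and Mt-nd4l, and for 1.18% of the genes tested. At an unadjusted p below 0.05 the edgeR test had 6 of the 7 and 2.49% of all genes. DESeq2's Wald test called 5, and 2.17% of all genes, with adjusted p-values of 0.00713 for Mt-nd4l, 0.00966 for Mt-nd6, 0.015 for Mt-nd2, 0.0172 for Mt-nd5 and 0.0188 for Mt-nd4. The members share transcripts and libraries, so these counts are not 7 separate observations.

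The count at 6 weeks depended on the setting. None of the 7 was called without the rat block (0.00694% of all genes) or with the 6-week rats alone (0% of 10986 genes). With the libraries not summed 1 was called (0.0464% of all genes), and 5 with total-count scaling (0.271%). Total-count scaling called Mt-nd1, Mt-nd2, Mt-nd4, Mt-nd5 and Mt-nd6 but not Mt-nd4l. Leaving out the 4 libraries of few genes gave 6 (0.287% of all genes), and leaving out the first near library of rat 25, which belongs to another time of the same fit, gave 4 (0.112%). With 1 rat left out the count ran from 1 (without rat 19, 0.0641% of all genes) to 5 (without rat 11, 0.16%), and was 4 without rat 2 (0.167%), with neither Mt-nd6 nor Mt-nd4l among them. All 7 fitted values stayed above 0 under each of the 14 alternatives.

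**Figure D3:**
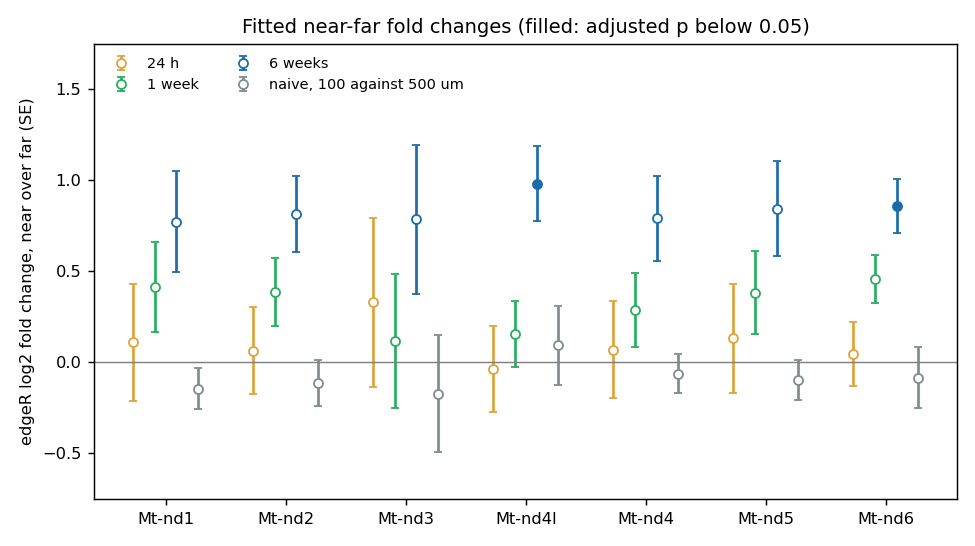
Fitted near-over-far log2 fold changes of the 7 genes (y axis) for each gene (x axis) at 24 h, 1 week and 6 weeks and for 100 µm against 500 µm in naive rats; bars are standard errors and filled points have an adjusted p below 0.05 (edgeR). The 6-week values (0.77 to 0.98) are the highest of each gene, and only Mt-nd4l and Mt-nd6 at 6 weeks are filled.

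At 1 week none of the 7 genes was called (edgeR), where 0.396% of the genes tested were. One had an unadjusted p below 0.05, as did 6.05% of all genes, and DESeq2 called 1 of the 7 and 8.8% of all genes. The same gene, Mt-nd6, was the nearest to a call. Its near levels were 1817 (rat 9), 2481 (rat 10), 3095 (rat 20), 3029 (rat 22) and 2519 CPM (rat 23), and its far levels were 1704, 1605, 1649.8, 2624 and 2180.2 CPM. Near tissue was higher in 5 of 5 rats, but the ranges overlapped. The log2 fold change was 0.46 ± 0.13 (SE, adjusted p = 0.101, edgeR), and DESeq2 gave 0.69 with an adjusted p of 0.0304.

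All 7 fitted values at 1 week were above 0, from 0.12 for Mt-nd3 to 0.46 for Mt-nd6, with a median of 0.38. Over all genes tested the median was -0.66, and 32.2% of genes were above 0, so the medians of the members and of all genes lay on opposite sides of 0. The all-gene median was -0.24 with the 4 libraries of few genes left out and -0.23 without rat 20, where the members' medians were 0.38 and 0.37. In CPM, Mt-nd2, Mt-nd4, Mt-nd5 and Mt-nd6 were higher near the shank in all 5 rats, as were 1.21% of the genes tested. With the 4 libraries of few genes left out, 4 rats remained and the lowest ratios were -0.29 for Mt-nd2, -0.13 for Mt-nd4 and -0.06 for Mt-nd5, whereas Mt-nd6 kept a lowest ratio of 0.05. Mt-nd1 was higher in 4 of 5 rats, with rat 9 at a log2 ratio of -0.05, and Mt-nd4l in 4 of 5, with rat 23 at -0.55. The tissue of rat 23 includes libraries of few genes. With these libraries left out, the lowest ratio was 0.02 for Mt-nd4l and -0.07 for Mt-nd1. Mt-nd3 was higher in 3 of 5 rats, from -0.53 in rat 9 to 0.99 in rat 10. Rats differed in the size of the difference: rat 9 had log2 ratios from -0.53 to 0.33 over the 7 genes, and rat 10 from 0.54 to 1.03. Without rat 10 the fitted values of Mt-nd3 and Mt-nd4l were -0.16 and -0.0029.

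At 24 h none of the 7 genes was called (edgeR), where 0.132% of the genes tested were. None had an unadjusted p below 0.05 (edgeR), beside 3.07% of all genes, and DESeq2 called none, beside 3.6%. The fitted log2 fold changes ran from -0.04 for Mt-nd4l to 0.33 for Mt-nd3, with a median of 0.07 beside -0.08 over all genes. With library totals as the scale, 6 of the 7 were below 0, from -0.18 to -0.02, and Mt-nd3 was at 0.18. The rats differed from each other. In CPM, rat 29 had higher near levels for 6 of the 7 genes and a lower level for Mt-nd3 (log2 ratio -0.57). The low Mt-nd3 level rested on its near library of few genes, where Mt-nd3 was at 53.6 CPM. In its other near library Mt-nd3 was at 324 CPM, beside 320 CPM in far tissue of the rat. Only Mt-nd4 was there below the far level (17636 beside 17964 CPM). Rat 25 had lower near levels for 6 of 7 and a higher level for Mt-nd3 (0.63), but this rested on its first near library. In its other near library, only Mt-nd6 was below the rat's far level (1233 beside 1799 CPM). Mt-nd1 was there at 9981 beside 8085 CPM, and Mt-nd4l at 548 beside 534 CPM. Mt-nd6 spanned the widest range of log2 ratios. Its near levels were 939, 3569.7 and 2556 CPM in rats 25, 29 and 30, and its far levels 1799, 2636 and 2289 CPM. With the first near library of rat 25 left out, its ratios ran from -0.55 to 0.44, and those of Mt-nd3 from -0.57 to 0.68. With libraries of few genes left out instead, the ratios of Mt-nd6 ran from -0.94 to 0.16, and those of Mt-nd3 from 0.01 to 0.63. Without the first near library of rat 25, all 7 fitted values were above 0, from 0.13 to 0.33, and none was called.

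**Figure D4:**
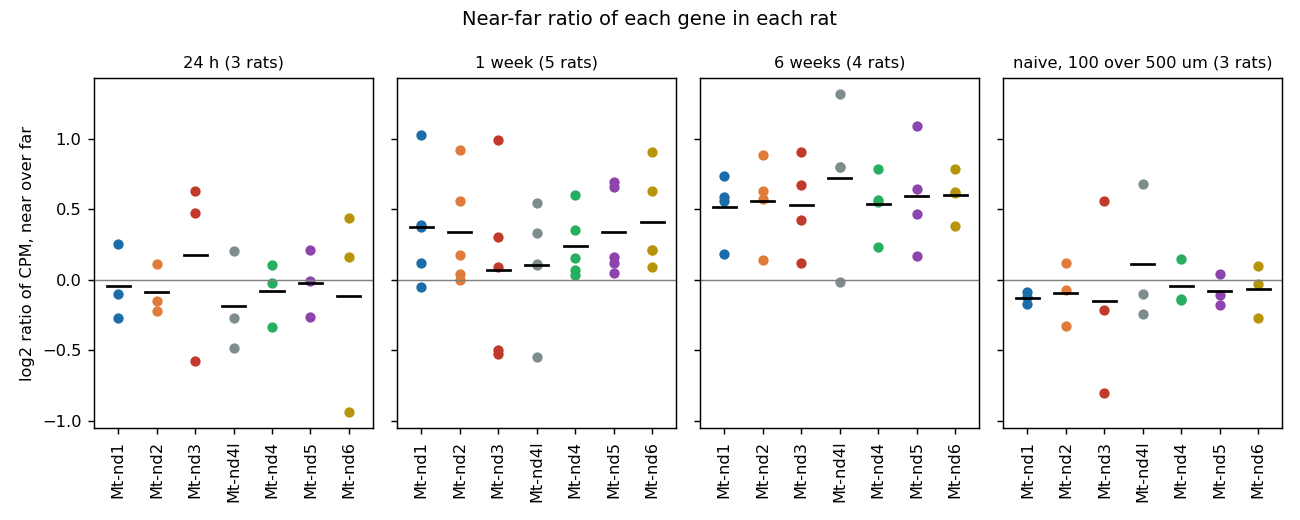
Near-over-far log2 ratio of CPM (y axis) for each gene (x axis) in each rat (points), with the mean (bar), at 24 h, 1 week and 6 weeks and for 100 µm over 500 µm in naive rats. At 6 weeks all points but 1 lie above 0 (Mt-nd4l in rat 17, -0.02), while at 24 h and in naive rats the points lie on both sides of 0 for all genes but Mt-nd1 in naive rats.

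Whether the near-far difference itself changed between times was tested in the same fit. From 24 h to 6 weeks none of the 7 was called (edgeR), where 0.0208% of the genes tested were. An unadjusted p below 0.05 (edgeR) was found for 3 of the 7 and 1.25% of all genes. DESeq2 called none of the 7 and 1.76% of all genes. The changes were all above 0, from 0.46 for Mt-nd3 to 1.02 ± 0.31 (SE, adjusted p = 1) for Mt-nd4l, and Mt-nd6 had 0.81 ± 0.23 (adjusted p = 0.923, edgeR). From 1 week to 6 weeks none was called, where 0.0278% of genes were. An unadjusted p below 0.05 (edgeR) was found for 2 of the 7 and 2.29% of all genes. DESeq2 called none of the 7 and 2.9% of all genes. The median change was 0.46 for the members and 0.63 for all genes. With the 4 libraries of few genes left out these were 0.51 and 0.27, and without rat 20 they were 0.42 and 0.24, so the order of members and genes turned. From 24 h to 1 week none of the members and 0% of all genes were called. No member had an unadjusted p below 0.05 (edgeR), beside 1.79% of all genes. DESeq2 called no member and 2.85% of all genes. A near-far difference that passed the test at 6 weeks and not earlier is thus not shown to differ between times. The count for 24 h to 6 weeks was 4 without the low-count filter (0.0751% of all genes) and also 4 when libraries of few genes were left out (0.119%).

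Tissue of different times comes from different rats and was compared without a block. In near tissue, none of the 7 genes was called between 24 h and 1 week (edgeR, where 0.0469% of 12799 genes were), between 24 h and 6 weeks (0.0234%) or between 1 week and 6 weeks (0.00781%). None had an unadjusted p below 0.05 (edgeR) in any of these comparisons, and DESeq2 called none. Among all genes, 5.67%, 4.2% and 5.02% had such an unadjusted p, and DESeq2 called 1.99%, 2.05% and 1.25%. The medians of the members were -0.37, -0.27 and 0.12 on the log2 scale. Without rat 25, 1 of the 7, Mt-nd2, was called between 24 h and 1 week, lower at 1 week, where 0.117% of all genes were called.

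In far tissue, the fitted values of all 7 genes were below 0 in each comparison of a later with an earlier time, but none was called. The medians were -0.40 from 24 h to 1 week, -0.69 from 24 h to 6 weeks and -0.31 from 1 week to 6 weeks. Over all genes, 0% of 12995 were called in each of the 3, and their medians were 0.02, -0.04 and -0.06. Mt-nd6 alone had an unadjusted p below 0.05, from 24 h to 6 weeks, with a log2 fold change of -0.73 ± 0.30 (SE, adjusted p = 1, edgeR). DESeq2 called no member in any of the 3. Among all genes, 4.2%, 4.1% and 5.09% had such an unadjusted p, and DESeq2 called 1.51%, 1.69% and 0.993%. In CPM, far levels of Mt-nd1 were 8085, 14052 and 12529 at 24 h (rats 25, 29 and 30), and 7425 to 10532 at 6 weeks, so the ranges overlapped through rat 25. The 7 genes' share in far tissue at 6 weeks was 3.44 ± 0.619% (SD, n = 4), and in naive 500 µm tissue 3.61 ± 0.709% (SD, n = 3).

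Near and far tissue were each set against naive tissue of the matching position over the genes present in both tables. The naive libraries carry a different series of numbers in the labels, so a batch and the implant cannot be told apart here. The 3 times share the same naive rats. Near tissue had no called member at 24 h (edgeR, where 0.0578% of 13834 genes were called), 1 week (0.123%) or 6 weeks (0.0434%), and DESeq2 called none. At an unadjusted p below 0.05 (edgeR) there was 1 at 24 h and none later, beside 5.95%, 8.85% and 3.8% of all genes at the 3 times. DESeq2 called 2.89%, 2.23% and 1.32% of all genes. The member medians were 0.96, 0.58 and 0.77, beside -0.17, -0.30 and -0.17 over all genes. Without rat 25, 2 members were called at 24 h, Mt-nd6 and Mt-nd4l, both higher than in naive tissue, where 0.124% of all genes were called.

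Far tissue against naive tissue had no called member at 24 h (edgeR, where 0.00748% of 13369 genes were called), 1 week (0.127%) or 6 weeks (0.0598%), and DESeq2 called none. Of the members, 1 had an unadjusted p below 0.05 (edgeR), at 6 weeks. Such a p was found for 7.17%, 9.43% and 7.82% of all genes at 24 h, 1 week and 6 weeks. DESeq2 called 5.09%, 5.81% and 4.93% of all genes. The member medians were 0.53, 0.05 and -0.19, with all-gene medians from -0.04 to 0.00. Mt-nd1, as an example of the larger members, was at 0.58 ± 0.35 (SE) at 24 h, 0.05 ± 0.31 at 1 week and -0.08 ± 0.33 at 6 weeks, each with an adjusted p of 0.776 or more (edgeR). In naive rats, 100 µm against 500 µm gave no called member and 0% of 11839 genes (edgeR, with 600 genes but no member at an unadjusted p below 0.05). DESeq2 called 11.4% of all genes there and 1 member, Mt-nd1, lower at 100 µm by a log2 value of -0.22 at an adjusted p of 0.0111.

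Mt-nd3 differed from the other members in these comparisons with naive tissue. Its fitted values were 0.19, -0.17 and -0.05 for near tissue at 24 h, 1 week and 6 weeks, and -0.25, -0.65 and -1.05 for far tissue. In each of the 6 comparisons it was the lowest of the 7. The last value, -1.05 ± 0.40 (SE), had an unadjusted p of 0.0133 and an adjusted p of 0.608 (edgeR). In levels, Mt-nd3 was at 230.1, 200.3 and 181 CPM in naive 100 µm tissue (rats n2, n3 and n5) and 267, 136 and 316 CPM at 500 µm. Near tissue at 6 weeks held 168, 153, 187 and 179.8 CPM in rats 2, 11, 17 and 19. Far tissue of the same rats held 89.4, 114, 172 and 113 CPM.

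The same gene stood apart in the makeup of the members' counts, a quantity that does not depend on library scaling. Mt-nd3 took 0.241% to 0.580% of the 7 genes' counts over the 24 implanted sums of a rat and distance, with a median of 0.346%. Over the 6 naive sums it took 0.482% to 0.828%, with a median of 0.619%. Of the implanted sums, 4 lay above the lowest naive sum, so the ranges overlapped. Group means were 0.605 ± 0.0688% (SD, n = 3) and 0.649 ± 0.173% (n = 3) in naive 100 µm and 500 µm tissue, and 0.345% to 0.419% in the 6 implanted groups. Near and far tissue at 6 weeks had overlapping values, at 0.345 ± 0.031% and 0.350 ± 0.0363% (SD, n = 4 each). The batch of the naive libraries cannot be told apart from the implant in this value either.

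For the remaining members, the median shares of implanted and naive sums lay closer in relative terms than for Mt-nd3. Between sums Mt-nd4l still varied, from 1.18% to 2.43% in implanted and from 0.988% to 2.31% in naive rats. Over the 24 implanted and the 6 naive sums, the medians were 24.1% and 22.9% for Mt-nd1, 14.8% and 14.7% for Mt-nd2, 29.2% and 28.2% for Mt-nd4, 24.9% and 26.1% for Mt-nd5, 1.70% and 2.04% for Mt-nd4l and 4.88% and 4.83% for Mt-nd6. The implanted and naive ranges overlapped for each of them. Near and far tissue also overlapped in makeup: at 6 weeks the share of Mt-nd6 was 4.65 ± 0.443% near and 4.51 ± 0.504% far (SD, n = 4 each), higher near in 3 of 4 rats. At 24 h Mt-nd5 took a larger share in near tissue in 3 of 3 rats, by 0.654 ± 0.141 points (SD). Without the first near library of rat 25 it was higher in 2 of 3, with a difference of -0.027 ± 1.13 points.

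**Figure D5:**
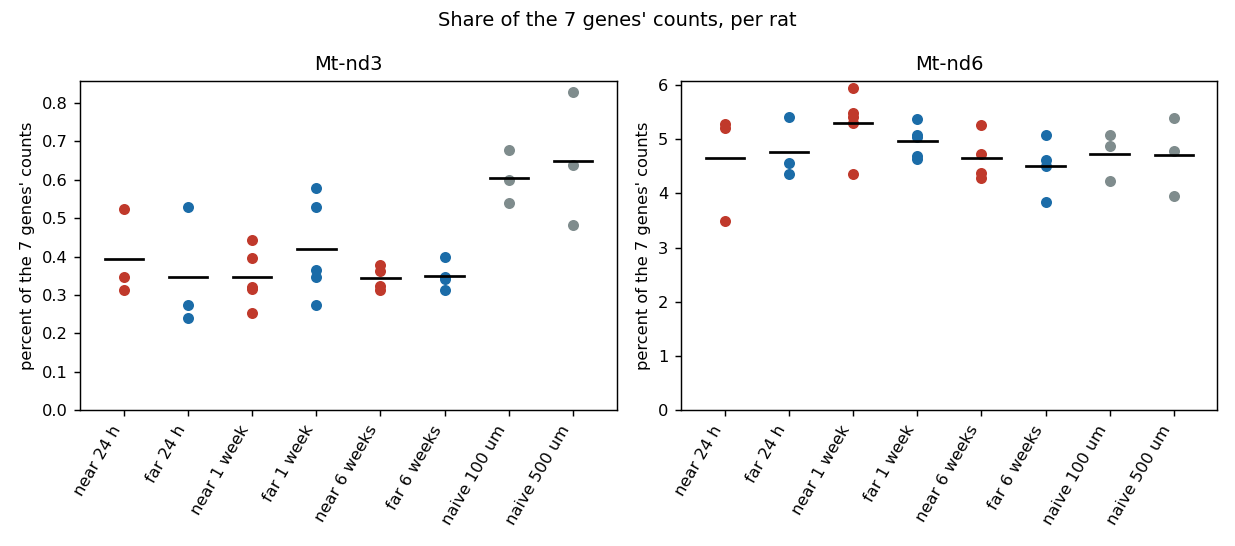
Share of the 7 genes' counts (y axis, percent, from 0) taken by Mt-nd3 (left) and Mt-nd6 (right) in each group (x axis); points are rats and bars are group means. Naive means of Mt-nd3 (0.605% and 0.649%) lie above the implanted means (0.345% to 0.419%), while Mt-nd6 lies between 3.49% and 5.95% in all groups.

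Across samples the levels of the members were correlated, to differing degrees. Over the 24 implanted sums, the Pearson correlation of log2 CPM was 0.76 to 0.97 for the 15 pairs without Mt-nd3 (Spearman 0.71 to 0.94) and 0.49 to 0.66 for the 6 pairs with Mt-nd3 (Spearman 0.44 to 0.66). Over the 6 naive sums the pairs without Mt-nd3 ran from 0.46 to 0.98 and those with Mt-nd3 from 0.64 to 0.90, so Mt-nd3 did not stand apart there. These points share libraries and totals, and the values are descriptions. Without near tissue of rat 25 the implanted pairs without Mt-nd3 ran from 0.72 to 0.97. Over the 11 near sums without rat 25 they ran from 0.14 to 0.97 (Spearman 0.00 to 0.97).

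Likeness was measured over 5928 other genes whose log2 CPM averaged 3 or more. Those most like the mean of the members over the 24 implanted sums were ENSRNOG00000034234 (Pearson r = 0.99) and ENSRNOG00000031979 (r = 0.98). Over the 6 naive sums these 2 had r = 0.96 and r = 0.46. Only 7 of the genes compared reached 0.9, and the 2 most abundant genes were the sixth and seventh in likeness (0.95 and 0.95).

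Ordered by mean level in CPM, neighbouring groups mostly lay close together, as sorted means tend to. Small steps between neighbours do not show that groups further apart in the order were alike. For Mt-nd6 the order ran from near tissue at 1 week (2588 ± 515 CPM, SD), 24 h (2355 ± 1327) and 6 weeks (2319 ± 190.3) through far tissue at 24 h (2241 ± 420.5) and 1 week (1952 ± 441) to naive 500 µm (1686 ± 358), naive 100 µm (1589 ± 133) and far tissue at 6 weeks (1548 ± 315). All 7 steps were within the larger SD of the pair, as they were for each other gene but Mt-nd3, where 6 of 7 were. For Mt-nd4l the highest group was near tissue at 6 weeks (995 ± 108 CPM) and the lowest was far tissue at 6 weeks (622 ± 201 CPM). Mt-nd3 had its highest mean in naive 500 µm tissue (239.8 ± 93.3 CPM) and its lowest in far tissue at 6 weeks (122 ± 35.4 CPM).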

How the data were processed

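The deposited values are raw counts of reads per gene in 2 tables, one of implanted and one of naive rats, and they were whole numbers used as deposited. Per the submitters' processing notes, the tools named are cutadapt 2.3, FastQC 0.11.8, STAR 2.6.1b, RSEM 1.3.1 and DESeq2, with rat build Rnor_6.0. The sources used here give neither their roles nor whether RSEM estimates were rounded. Per the labels' protocols the library kit keeps strand, and whether counting used it is not stated there.

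The members were named by a list of IDs, and the members, lists and tests were chosen with earlier results of these data known. Other preset gene lists could not be matched to IDs and were not analysed here. Libraries of a rat and distance were summed. Near and far tissue were paired by rat from the titles. The deviations of a rat's near and far tissue from their group means correlated only weakly, between 0.0057 and 0.0883 over 12 rats. The pairing, and with it the rat block, therefore rests on the titles, and the counts add little support. No pair of libraries in a group agreed within sampling noise (of 120 pairs, the lowest chi-square divided by its degrees of freedom was 58.5). Whether rats were separate litters is not stated.

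Genes were filtered with filterByExpr, scaled by TMM and tested with the robust quasi-likelihood test of edgeR 4.0.16 (R 4.3.3), with Benjamini-Hochberg adjustment over all genes tested. DESeq2 1.42.0 was an alternative. The SE was derived from the log2 fold change and its F statistic (their ratio after taking the root of F). It draws on a spread shared over genes and is not the spread between rats. The near-far fit was also run on simulated counts with known changes. Its outcome is not reported here and is not used as support. Alternatives were the scaling, the low-count filter, the test, each rat left out, libraries under 6000 genes left out, no block, libraries not summed and only the groups compared. Leaving out the first near library of rat 25 was added after seeing the data. Likeness used log2 CPM with a prior count of 2.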

Additional observations from a re-analysis of the deposited data

Results flagged for a closer look

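Each member's CPM, its share of the 7 genes' counts and the 7 genes' share of all counts were checked within the 6 libraries of each group for a value far from the rest, which chance gives in about 1 in 20 cases. Of 120 sets of 6 libraries tested, 6 held a value that stood apart, about the number that this rate gives. All of them were shares of the 7 genes' counts. Of these, 3 were in the first near library of rat 25 at 24 h, the one whose members took 0.892% of counts. There Mt-nd1 took 15.8% of the members' counts (the nearest library had 23.9%), Mt-nd3 took 1.496% (nearest 0.515%) and Mt-nd5 took 38.9% (nearest 25.2%). In near tissue of rat 20 at 1 week, a library of few detected genes, Mt-nd2 took 18.2% (nearest 14.1%). In the library of far tissue numbered 11 of rat 23 at 1 week, also one of few detected genes, Mt-nd4l took 3.80% (nearest 2.04%). In the first naive 100 µm library of rat n2, Mt-nd6 took 3.43% (nearest 4.75%).

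Mt-nd1 had near-far ratios of opposite sign at 6 weeks and in naive rats. A search for such cases covered each gene, the joint share and each gene's share of the members, over every pair of times or naive rats. This was its only hit. With few rats per group, a search this wide can give such a case by chance. Its log2 ratio of CPM, near over far, averaged 0.52 at 6 weeks and was above 0 in 4 of 4 rats, while 100 µm over 500 µm averaged -0.13 in naive rats and was below 0 in 3 of 3. At 24 h the mean was -0.04, with 2 of 3 rats below 0. Without the first near library of rat 25 that mean was 0.15 ± 0.22 (SD, n = 3). With libraries of few genes left out instead, it was -0.09 ± 0.18 (SD, n = 3). The difference between 6 weeks and naive rats was not tested.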

How the results depend on the processing

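Over the near-far comparisons, the fitted values of all 7 genes stayed above 0 at 6 weeks under the 14 alternatives run. At 1 week they did so except without rat 10, where Mt-nd3 was at -0.159 and Mt-nd4l at -0.0029; with 1 rat left out the highest values were 0.367 and 0.319. At 24 h Mt-nd3 stayed above 0 (0.17 to 0.53) under 13 of 13 alternatives, the other 6 genes changed sign under some, and no member was called there under any alternative. With total-count scaling the log2 fold changes of Mt-nd1, Mt-nd2, Mt-nd4, Mt-nd5 and Mt-nd6 were -0.0397, -0.0861, -0.0811, -0.0192 and -0.1076. Without libraries under 6000 genes they were -0.0249, -0.0141, -0.0591, -0.0031 and -0.1405, and with libraries not summed -0.0443, -0.0924, -0.0771, -0.0065 and -0.0930. Mt-nd4l was above 0 with DESeq2 size factors in edgeR (0.1546), in DESeq2's own test (0.1548), without the replicate block (0.2270) and without the first near library of rat 25 (0.1272). With 1 rat left out, the lowest values came without rat 29 and the highest without rat 25: -0.2077 and 0.3846 for Mt-nd1, -0.2067 and 0.2872 for Mt-nd2, -0.3994 and 0.2726 for Mt-nd4l, -0.1985 and 0.3514 for Mt-nd4, -0.1571 and 0.4111 for Mt-nd5, and -0.4101 and 0.6076 for Mt-nd6.

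Members called at 1 week numbered 1 with DESeq2 size factors (0.285% of all genes called) and 2 with total-count scaling (0.5%). They numbered 4 without a filter (0.248%) and 1 with DESeq2 (8.8%). With 1 rat left out they numbered 0 to 1, where 0.132% to 0.513% of all genes were called. At 6 weeks they numbered 5 with total-count scaling (0.271%), 5 without a filter (0.173%), 5 with DESeq2 (2.17%) and 6 without libraries under 6000 genes (0.287%). They numbered 0 without the replicate block (0.00694%), 1 with libraries not summed (0.0464%) and 0 with the 6-week rats as the sole samples (0%). Leaving out the rat 25 library gave 4 (0.112%), and leaving out 1 rat gave 1 to 5 (0.0641% to 0.167%). The change from 24 h to 6 weeks had 4 without a filter (0.0751%) and 4 without libraries under 6000 genes (0.119%). With 1 rat left out it had 0 to 3 (0% to 0.0835% of all genes). The change from 1 week to 6 weeks had 1 without a filter (0.0289%) and 0 to 2 with 1 rat left out (0% to 0.0839%). With 1 rat left out, near tissue at 24 h had 0 to 2 calls against naive tissue (0.0413% to 0.208% of all genes). Against 1 week it had 0 to 1 (0% to 0.117%). Near tissue at 6 weeks against naive had 2 with the groups compared as the sole samples (Mt-nd1 and Mt-nd4; 0.15%), and naive position had 1 with DESeq2 (11.4%). Dropping the block changed no other count. With counts outside the 2 most abundant genes as the denominator, the share differences were 0.771 ± 1.97, 2.00 ± 1.73 and 2.88 ± 1.61 points (SD), with 1 of 3, 5 of 5 and 4 of 4 rats higher near. The causes were not tested.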
